A study of Mus musculus with 2 samples.

Results

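The miR-7 microRNAs of mouse come from 3 genes, Mir7-1, Mir7-2 and Mir7b, which were taken by their GENCODE M21 symbols from the 1973 microRNA genes in the tables, and all 3 were measured. The data are microRNA-seq (small RNAs are ligated to adapters and sequenced) of hindbrain total RNA, with a labelled size range below 30 nt, from newborn B6NCrl mice, at postnatal day 0. There is 1 group of 2 libraries, pup 3 and pup 1, each made from the hindbrain of 1 pup, with no treatment or mutation named in the labels and no record of sex. With 1 group no condition could be compared, so the comparisons are those between the 3 loci within a library and between the 2 pups.

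miR-7 is an old and strongly conserved microRNA, known in mammals from endocrine cells of the pituitary and pancreatic islets and from neurons, where mRNAs such as that of alpha-synuclein are among its targets. In mammalian brain it is tied to a circuit of noncoding RNAs. The circular RNA Cdr1as carries many sites for miR-7, the long noncoding RNA Cyrano directs the decay of miR-7, and miR-671 directs the cleavage of Cdr1as. One of the miR-7 genes is carried by the gene of an RNA-binding protein, hnRNP K, which is made in nearly all cells, and in human cells the maturation of that copy is known to be held back by other RNA-binding proteins outside neurons.

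The mature sequences are shown first, because they decide which reads can be given to which gene. They are RefSeq's, on build GRCm38.p6, written 5′ to 3′ with the seed (bases 2 to 8, which pair with targets) in capitals.
mmu-miR-7a-5p, from both Mir7-1 and Mir7-2: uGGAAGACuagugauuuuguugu
mmu-miR-7b-5p, from Mir7b: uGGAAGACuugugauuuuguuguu
mmu-miR-7a-1-3p, from Mir7-1: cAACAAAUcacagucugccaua
mmu-miR-7a-2-3p, from Mir7-2: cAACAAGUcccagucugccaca
mmu-miR-7b-3p, from Mir7b: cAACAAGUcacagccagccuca

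The 5p arms of all 3 genes share the seed GGAAGAC, and no other of 1674 distinct mature mouse sequences in the same table has it. With positions counted from 1 at the 5′ end, miR-7a-5p and miR-7b-5p differ by A10U within the 23 nt they have in common, which lies outside the seed. The 3p arms divide the genes in another way. miR-7a-2-3p and miR-7b-3p share the seed AACAAGU, while miR-7a-1-3p, of the copy in Hnrnpk, has AACAAAU and shares it with no other sequence of the table. From miR-7a-1-3p to miR-7a-2-3p the changes are A7G, A10C and U21C. From miR-7a-1-3p to miR-7b-3p they are A7G, U14C, U16A, A20U and U21C.

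The precursors show where these arms lie, with the mature arms in capitals.
Mir7-1, chr13:58392779-58392886, minus strand: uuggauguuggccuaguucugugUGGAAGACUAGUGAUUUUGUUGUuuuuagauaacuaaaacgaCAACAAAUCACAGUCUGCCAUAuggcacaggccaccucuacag
Mir7-2, chr7:78888277-78888373, plus strand: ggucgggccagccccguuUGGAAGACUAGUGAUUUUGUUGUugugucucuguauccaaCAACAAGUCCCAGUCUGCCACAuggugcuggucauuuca
Mir7b, chr17:56242988-56243098, plus strand: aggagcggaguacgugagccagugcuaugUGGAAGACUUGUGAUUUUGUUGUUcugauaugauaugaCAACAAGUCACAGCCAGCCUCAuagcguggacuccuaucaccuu

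Mir7-1 (ENSMUSG00000065434.1, 108 nt) lies on the strand of Hnrnpk, inside an intron. It falls in the last intron of each of the 12 annotated Hnrnpk transcripts that span it, and overlaps no exon. The intron is 719 or 779 nt long by transcript, and its longer form covers chr13:58392417-58393195. Mir7-2 (ENSMUSG00000065609.1, 97 nt) overlaps no other annotated gene, and the nearest, the protein-coding gene Aen, starts 7481 nt beyond it on the same strand. Mir7b (ENSMUSG00000065491.1, 111 nt) also overlaps none, and the long noncoding RNA gene AC026385.1 ends 183 nt before it on the same strand. No other microRNA gene is annotated within 10 kb of any of the 3.

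The precursors of Mir7-1 and Mir7-2 share 1 unbroken stretch of 24 nt, which holds the whole of miR-7a-5p. Aligned end to end, 75 of 109 columns are identical between them, against 79 of 118 between Mir7-1 and Mir7b. Of all windows of 22 nt, about the length of a microRNA, 3 of 87 in Mir7-1 and 3 of 76 in Mir7-2 also occur in another annotated precursor or transcript, in each case the other of the pair. In Mir7b 0 of 90 windows do, since A10U interrupts the likeness. By the inferred layout of the tables, reads with several matching loci are counted for no gene. A read made only of miR-7a-5p is therefore in the counts of neither Mir7-1 nor Mir7-2, while their 3p arms and both arms of Mir7b each have 1 exact copy among annotated precursors. The genome itself was not searched.

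**Figure D1:**
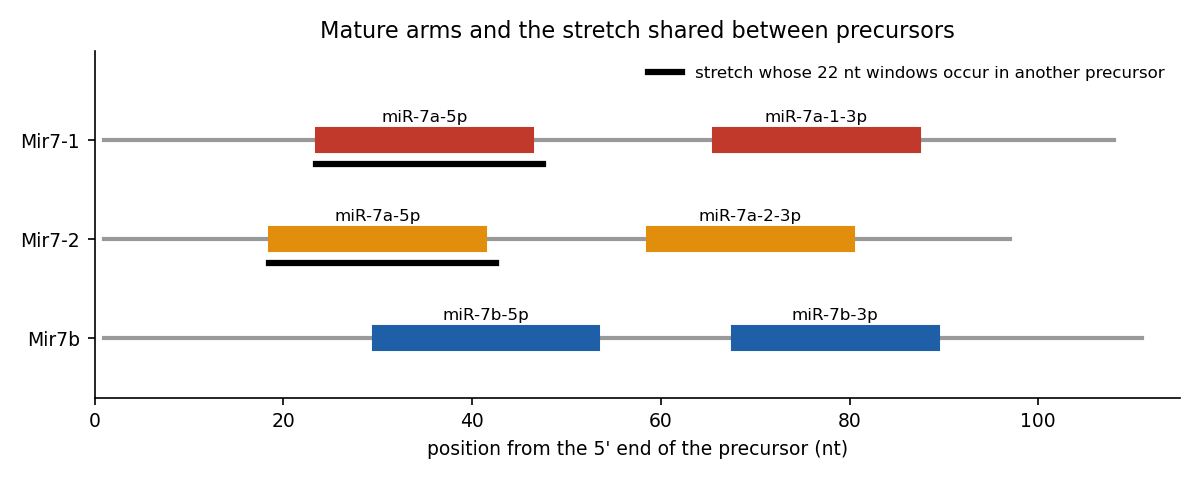
Layout of the 3 precursors by position from the 5′ end (nt, horizontal axis), with mature arms as coloured boxes and the black bar marking the stretch whose 22 nt windows also occur in another precursor. The bar covers miR-7a-5p in Mir7-1 and Mir7-2, and Mir7b has none.

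By counted reads, Mir7b was the highest of the 3 genes in both pups. By the inferred layout, the counts of Mir7-1 and Mir7-2 leave out reads of miR-7a-5p that map to both loci. Levels are in CPM, counts per 1000000 same-strand counts of all genes, whose total was 3012320 in pup 3 and 2459757 in pup 1. Mir7-1 had 1073 counts (356 CPM) in pup 3, against 832 counts (338 CPM) in pup 1, with exact 95% binomial intervals of 335 to 378 CPM in pup 3 and 316 to 362 CPM in pup 1. Mir7-2 had 781 counts (259 CPM) in pup 3, against 616 counts (250.4 CPM) in pup 1, with intervals of 241 to 278 CPM in pup 3 and 231 to 271 CPM in pup 1. Mir7b had 5101 counts (1693 CPM) in pup 3, against 5374 counts (2185 CPM) in pup 1, with intervals of 1647 to 1740.5 CPM in pup 3 and 2127 to 2244 CPM in pup 1. The order Mir7b, Mir7-1, Mir7-2 was the same in both pups, and no gene's range over the pups overlapped that of another. The opposite-strand column held 0 counts at each of the 3 genes in both libraries.

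Over the pups, Mir7-1 averaged 347 ± 12.7 CPM, Mir7-2 255 ± 6.25 CPM and Mir7b 1939 ± 347 CPM (± is the SD over n = 2 pups here and below). MicroRNA reads come from the mature arms, which are 22 to 24 nt in these genes, so CPM were not divided by length. Per 100 nt of precursor the levels were 322 ± 11.8 CPM for Mir7-1, 263 ± 6.44 CPM for Mir7-2 and 1747 ± 313 CPM for Mir7b, in the same order. Together the 3 genes held 0.231% of counts in pup 3 and 0.277% in pup 1.

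The Hnrnpk intron copy gave far fewer of the family's counted reads than Mir7b and slightly more than Mir7-2. Mir7-1 held 15.4% of the summed counts of the 3 genes in pup 3, with an exact interval of 14.6% to 16.3%, against 12.2% in pup 1, with one of 11.4% to 13.0%. Mir7-2 held 11.2% in pup 3 and 9.03% in pup 1. Mir7b, which shares no 22 nt window with another precursor, held 73.3% in pup 3 (72.3% to 74.4%) and 78.8% in pup 1 (77.8% to 79.7%). The intervals of Mir7-1 do not overlap between the pups, nor do those of Mir7b.

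**Figure D2:**
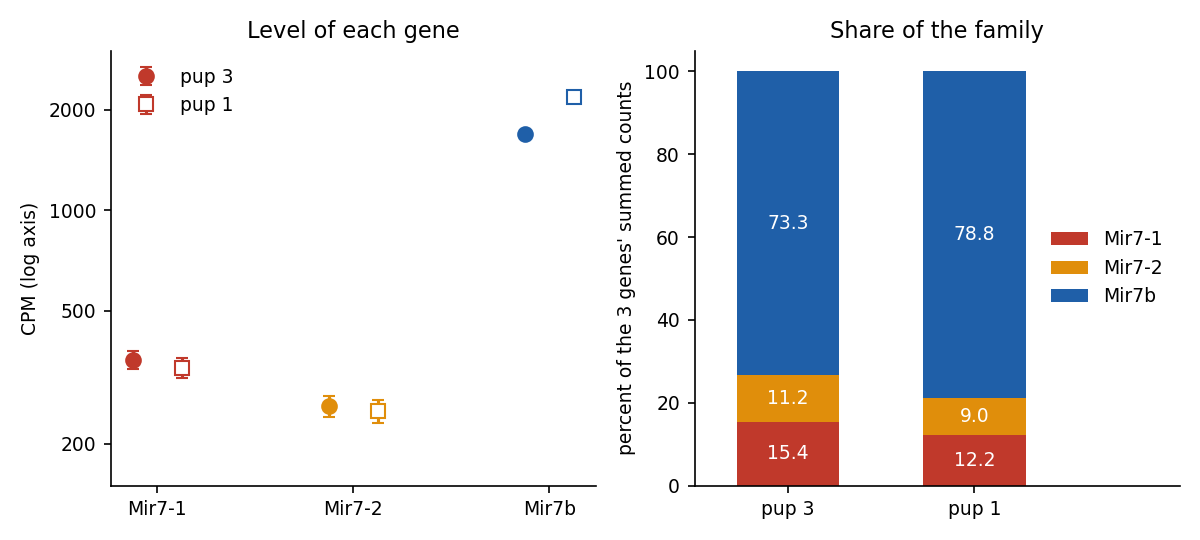
Left, CPM of each gene (log axis) in pup 3 (filled) and pup 1 (open), with exact 95% binomial intervals that cover counting error only. Right, each gene's percent of the summed counts of the 3 genes by pup, where Mir7b holds 73.3% in pup 3 and 78.8% in pup 1.

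Set against the other genomic copy of miR-7a, Mir7-1 was modestly higher in counted reads, by about the same factor in both pups. Reads of miR-7a-5p that map to both loci are, by the inferred layout, in neither count. The ratio therefore does not compare the miR-7a-5p made by each locus. The ratio of Mir7-1 to Mir7-2 counts was 1.37 in pup 3 and 1.35 in pup 1, or 0.46 (exact counting interval 0.32 to 0.59) and 0.43 (0.28 to 0.59) on the log2 scale. Per 100 nt of precursor the ratio was 1.23 in pup 3 and 1.21 in pup 1. All 4 intervals, by counts and per length, lie above 0 (log2). Over the pups, a two-sided exact sign-flip permutation test of this ratio gave p = 0.5, the smallest p that 2 animals allow, so it cannot reach 0.05.

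Set against Mir7b, the Hnrnpk copy was lower. The log2 ratio of Mir7-1 to Mir7b counts was -2.25 in pup 3 (interval -2.35 to -2.15) and -2.69 in pup 1 (-2.80 to -2.59), so that Mir7b had 4.75 times the counts of Mir7-1 in pup 3 and 6.46 times in pup 1. Per 100 nt these factors were 4.63 in pup 3 and 6.28 in pup 1. This ratio differed between the pups beyond counting error, since its intervals do not overlap. The exact sign-flip permutation test over the pups again gave its smallest possible p of 0.5. By the inferred layout, reads of miR-7a-5p that map to both of its loci are missing from the counts of Mir7-1 and Mir7-2 and not from those of Mir7b, and their part in the ratio was not tested. Reads mapped to several loci numbered 3015969 in pup 3 and 2337021 in pup 1, and which microRNAs they hold is not recorded in the tables.

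Among the 699 genes with a count in either library, Mir7b ranked 90th by CPM in pup 3 and 77th in pup 1. Mir7-1 ranked 163rd in pup 3 and 159th in pup 1, and Mir7-2 178th in pup 3 and 177th in pup 1. The counts behind the ranks of Mir7-1 and Mir7-2 lack, by the inferred layout, reads of miR-7a-5p that map to both loci. The median of the 699 genes was 5.13 CPM, and the median of the 395 genes with at least 10 counts in a library was 181 CPM, so all 3 miR-7 genes lay above both. In mean level Mir7b stood between Mir132 (2043 ± 95.5 CPM), Mir128-2 (2034 ± 217 CPM), both known from neurons, and Mir341 (1907 ± 249 CPM) and Mir370 (1826 ± 3.87 CPM). None of these 4 differed from Mir7b by more than the SD of Mir7b.

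Mir7-1 stood just below Mir216b (355 ± 37.2 CPM) and Mir421 (354 ± 37.9 CPM), and just above Mir592 (342 ± 48.3 CPM) and Mir148b (338 ± 27.8 CPM), and each differed from it by less than its own SD. Mir7-2 followed Mir31 (278 ± 21.3 CPM) and Mir666 (264 ± 32.8 CPM) and preceded Mir483 (246 ± 42.6 CPM) and Mir32 (235 ± 95.9 CPM). Of these, Mir31 was above Mir7-2 in both pups, at 293 CPM in pup 3, against 263 CPM in pup 1, and the other neighbours differed from Mir7-2 by less than their own SD. With 2 libraries of 1 tissue, likeness of pattern across samples could not be measured, so these are genes of like level in counted reads only.

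**Figure D3:**
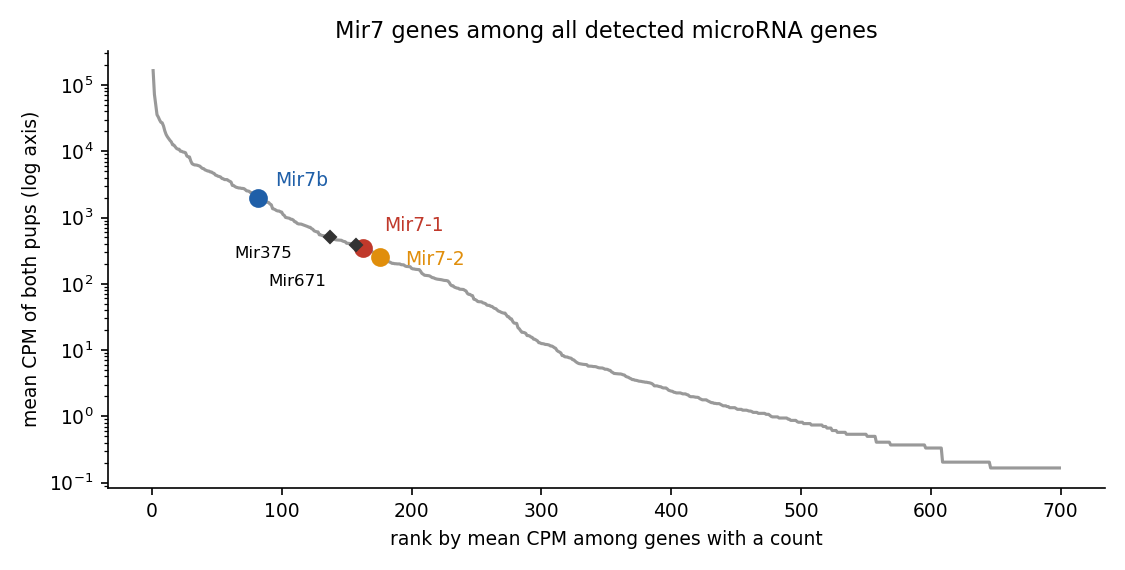
Mean CPM of both pups (log axis) against rank for the genes with a count, as a grey line. In counted reads, Mir7b (1939 CPM) lies well above Mir7-1 (347 CPM) and Mir7-2 (255 CPM). Mir7-1 and Mir7-2 sit near Mir671 (387 CPM) and below Mir375 (512 CPM). Their counts lack, by the inferred layout, reads of miR-7a-5p that map to both loci.

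Between the pups, Mir7b was lower in pup 3, and Mir7-1 and Mir7-2 did not pass the test. By the inferred layout, the counts of Mir7-1 and Mir7-2 leave out reads of miR-7a-5p that map to both loci. They therefore do not measure miR-7a-5p between the pups. The 2 libraries were compared gene by gene with a two-sided exact binomial test of the counts given TMM-scaled totals (TMM is edgeR's scaling for composition), with Benjamini-Hochberg adjustment over 395 genes at 0.05. This test compares 2 libraries beyond counting error and not conditions, and 46.8% of the genes tested passed it, 21.3% as lower and 25.6% as higher in pup 3. Mir7b was lower in pup 3, with a log2 fold of pup 3 over pup 1 of -0.42 (counting interval -0.48 to -0.37, adjusted p = 2.86e-49 by the exact binomial test). Mir7-1 did not pass, with a log2 fold of 0.02 (interval -0.11 to 0.15, adjusted p = 0.878, same exact test). Mir7-2 did not pass either, with a fold at 0 within rounding (interval -0.16 to 0.15, adjusted p = 1, same exact test).

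The interval of Mir7b lies wholly below those of Mir7-1 and Mir7-2. Thus 1 of 3 genes passed a test that 46.8% of all genes passed, which is no more than the background. The spread between the pups over all genes, expressed by edgeR as 1 biological coefficient of variation for 361 genes, was 16.6%. It gives log2 folds between a pair of pups an SD of 0.34. The fold of Mir7b came to -1.24 such SDs, and 106 of the 395 genes had a larger fold in either direction. Its difference is thus beyond counting error, but folds of that size were common between these pups over tested genes of all levels. Folds of genes with few counts carry more counting error, and genes near the level of Mir7b were not counted apart. As 1 sum, Mir7-1 and Mir7-2 had 615 CPM in pup 3, against 589 CPM in pup 1, with a log2 fold of 0.01 (interval -0.09 to 0.11). By the inferred layout this sum, too, lacks reads of miR-7a-5p that map to both loci.

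**Figure D4:**
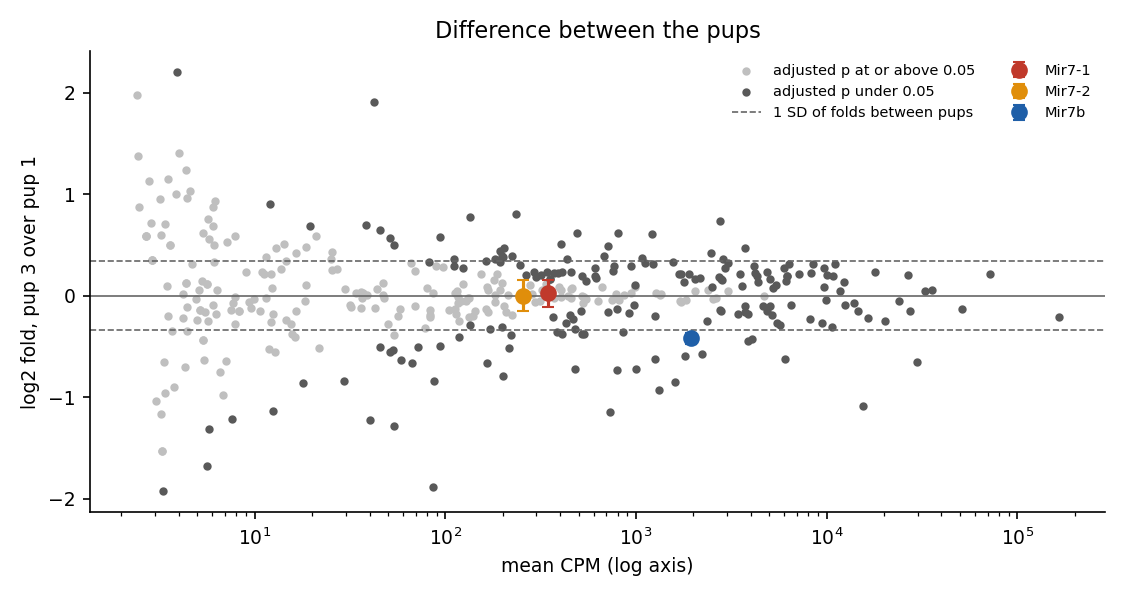
Log2 fold of pup 3 over pup 1 against mean CPM (log axis) for the 395 tested genes, with the miR-7 genes coloured and their exact counting intervals drawn. Mir7b, at -0.42, lies just beyond the dashed line at 1 SD of folds (0.34), while Mir7-1 and Mir7-2 lie at about 0.

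Other microRNA genes that carry copies of 1 microRNA gave a frame for the pair of Mir7-1 and Mir7-2. By symbols that differ only in a final -1, -2 or -3, 45 such families were found, and in 18 of them, all pairs, each copy had at least 10 counts in both libraries. In 17 of the 18 the copies have exactly 1 mature sequence in common, as Mir7-1 and Mir7-2 do. The ratio of the higher to the lower copy in mean CPM ran from 1.10 in Mir135a to 88.5 in Mir181b, with a median of 3.19. Mir7-1 over Mir7-2, at 1.36, was the fifth most even of the 18.

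The 2 pairs nearest the median were Mir128, at 2.93, and Mir26a, at 3.44. Mir128-1 had 5957 CPM and Mir128-2 had 2034 CPM in the mean of the pups, and both are known from neurons. In 8 pairs, Mir7 among them, the ratio was under 2, and in 4 it was over 10. These ratios are of reads mapped to 1 locus, so the 17 pairs with a shared mature sequence can lack its reads. For the remaining pair, Mirlet7a, the RefSeq table lists no identical mature sequence. Only whole listed sequences were compared, so a loss of shared reads in the Mirlet7a pair was not tested.

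**Figure D5:**
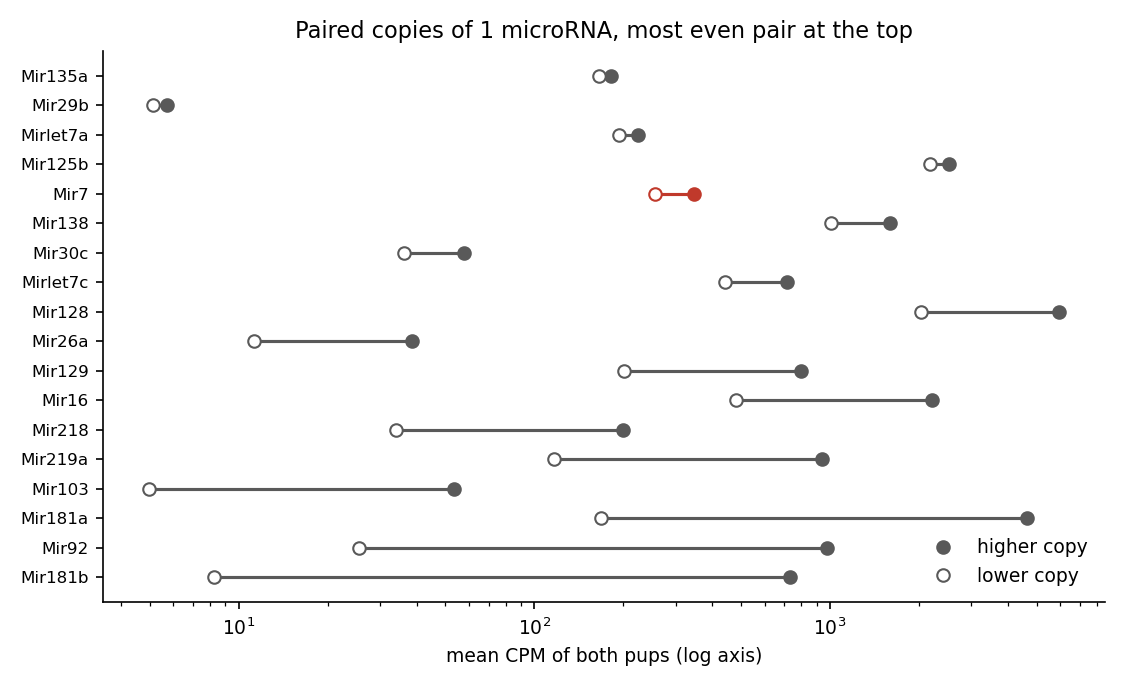
Mean CPM of both pups (log axis) of the higher (filled) and lower (open) copy for 18 pairs of genes that carry 1 microRNA, ordered by their ratio. The pair of Mir7-1 and Mir7-2 (red) has a ratio of 1.36, and the pairs range from 1.10 to 88.5.

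Of the other parts of the circuit around Cdr1as, microRNA tables can hold only Mir671, the gene of miR-671. Mir671 had 1042 counts (346 CPM) in pup 3, against 1054 counts (428 CPM) in pup 1. It was lower in pup 3, as were 21.3% of all genes tested, with a log2 fold of -0.36 (adjusted p = 3.67e-08 by the exact binomial test). The SD of log2 folds between the pups was 0.34. Mir7b had the same direction, and a link between the 2 genes was not tested. Mir671 passed under all 4 scalings run. Its mean of 387 ± 58.4 CPM exceeded that of Mir7-1, but in pup 3 Mir7-1 was the higher of the pair, with 356 CPM.

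Markers of tissue were checked as summed levels. The neuronal list had 44274 CPM in pup 3, against 43279 CPM in pup 1, with 10 of 14 measured members at 10 CPM or more in both pups. The exceptions were Mir124a-1, Mir124a-2, Mir124a-3 and Mir9-2. By their symbols these are copies of a microRNA encoded more than once, as are higher members such as Mir128-1 (5957 CPM) and Mir9-3 (478 CPM). Reads that match several loci are, by the inferred layout, counted for no gene. Their part in the low counts of these exceptions was not tested, so the counts do not measure how much mature microRNA was present. Members of the neuronal list moved both ways between the pups, from -0.85 in Mir138-1 to 0.74 in Mir153 (log2 folds). Of 11 tested, 4 were higher and 6 lower in pup 3 (exact binomial test), against 25.6% and 21.3% of all genes tested. The oligodendrocyte list had 2000.5 CPM in pup 3, against 1626 CPM in pup 1, and the Hox-encoded list, of caudal position, 34281 CPM in pup 3, against 57126 CPM in pup 1. The striated muscle, red blood cell and liver lists had 125, 105 and 45.5 CPM in pup 3 and 98.4, 151 and 41.9 CPM in pup 1, and the sensory organ list had 2034 CPM in pup 3, against 2795 CPM in pup 1. The red blood cell sum joins Mir451a, lower in pup 3 (log2 fold -1.88), and Mir144, higher (1.91). In the sensory organ list Mir182 had 925 CPM in pup 3, against 1704 CPM in pup 1. Mir183 (816 and 812 CPM) and Mir96 (292 and 278 CPM) did not pass. The striated muscle counts were all of Mir206, with 3 members at 0. Among Hox-encoded genes, Mir10a and Mir10b were lower in pup 3 (log2 folds -0.65 and -1.09), while Mir615, Mir196a-2 and Mir196b did not pass.

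Because miR-7 is abundant in pituitary and other endocrine cells, markers of these were read beside it. Mir375, of endocrine cells, had 495 CPM in pup 3, against 529 CPM in pup 1, and was lower in pup 3 (log2 fold -0.15, adjusted p = 0.0149 by the exact binomial test). Mir429, of the Mir200 family of epithelial and pituitary cells, had 93.0 CPM in pup 3, against 71.1 CPM in pup 1, and was higher in pup 3 (log2 fold 0.33, adjusted p = 0.0389, same exact test). Both calls depend on the scaling: with plain totals Mir375 had a log2 fold of -0.10 (adjusted p = 0.139, exact test), and with TMM factors from genes with at least 10 counts Mir429 had 0.26 (adjusted p = 0.123, exact test). In the whole list of 6 genes, none was at 0 in both pups, 2 were higher and 1 lower in pup 3, and 3 did not pass, so that 3 of 6 passed a test that 46.8% of all genes passed. The list summed to 651 CPM in pup 3, against 641 CPM in pup 1, and with TMM totals the log2 fold of the sum was -0.03. Mir375, the largest member, and Mir7b were both lower in pup 3, while every other member of the list had a fold above 0. These log2 folds were 0.31 in Mir200a, 0.42 in Mir200b, 0.33 in Mir429, 1.98 in Mir141 and 0.68 in Mir200c. Among them, Mir429 and Mir200c passed, the latter with adjusted p = 0.0355 (exact binomial test). The call of Mir200c was not checked under the other scalings. The part of endocrine cells in the level of Mir7b was not tested. In tissue RNA, fewer cells of a type and less RNA per cell cannot be told apart.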

How the data were processed

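MicroRNA-seq of 2 newborn hindbrains was used. The authors deposited raw read counts per microRNA gene, on assembly mm10 with GENCODE M4, per the listings deposited beside the tables. The sources used here name no aligner, counter or trimming. The layout of the count columns was inferred: the first equals the sum of the others in every gene, and the same-strand column was used. Rows without a gene do not enter the totals. Reads that mapped to several loci came to 42.0% of the reads of pup 3 and 40.2% of those of pup 1. Leaving them out could lower the counts of repeated genes. By Ensembl identifier 1894 of 1973 genes matched GENCODE M21, whose precursors of all 3 miR-7 genes have the coordinates and sequence of RefSeq on GRCm38.p6.

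CPM, shares and exact Clopper-Pearson intervals at 95% were computed with scipy 1.17.1. A count of 0 allows 3 counts, which is 0.996 CPM in pup 3, against 1.22 CPM in pup 1. Reads carry no molecular identifiers, so intervals cover counting error only. Genes with at least 10 counts in a library were compared between the libraries by an exact binomial test given TMM totals (edgeR 4.0.16, R 4.3.3, factors from all genes), with a prior of 0.5 counts in folds. Without replicates on both sides, edgeR's quasi-likelihood test could not be used. On data simulated with counting error alone, 79 of 100 genes changed 2-fold, 79 of 100 changed 1.5-fold and 3 of 195 unchanged genes were called among 395. The libraries were taken as separate by their labels, each naming a different pup. Their counts differed by more than sampling noise (chi-square of 49286, with 394 degrees of freedom). That difference alone cannot tell separate animals from separate preparations of the same RNA. Alternatives were DESeq2 1.42.0 size factors, plain totals, other filters, the either-strand column, another prior, scaling to all reads, levels per precursor length and each pup alone.

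Named genes are the 3 miR-7 genes, genes within 10 kb, the 2 next above and below each in mean CPM, and lists of copies, of the Cdr1as circuit, of endocrine and neuronal microRNAs and of cell type markers. Of copy families, those with the extreme and median ratios were named. Genes and lists were chosen with earlier results of these data known.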

Additional observations from a re-analysis of the deposited data

Results flagged for a closer look

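Reads mapped to several loci, which no comparison above uses, made up 41.1% ± 1.29 of all reads (SD, n = 2). miR-7a-5p, with exact copies in the precursors of Mir7-1 and Mir7-2, is 1 of 59 among 1674 distinct mature mouse sequences that lie in more than 1 annotated precursor. The share of miR-7a-5p in these reads is not recorded in the tables.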

How the results depend on the processing

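Mir7b was lower in pup 3 under every alternative run, with log2 folds from -0.50 to -0.37 and adjusted p from 9.54e-68 to 6.54e-38 (exact binomial test), and Mir7-1 and Mir7-2 passed under none. The sign of their folds near 0 depended on the scaling. Mir7-2 had 0.0159 with DESeq2 size factors and 0.0498 with plain totals. Mir7-1 had -0.0532 with TMM factors from genes with at least 10 counts alone, an alternative chosen after seeing the data, which moves all folds by -0.13 relative to plain totals. The count of genes called ranged from 177 to 196. Scaled to all reads in place of counted ones, a larger denominator, Mir7-1 had 146 CPM, Mir7-2 107 CPM, Mir7b 818 CPM and the family 1071 CPM. With the either-strand totals Mir7-2 had 247 CPM, a small move next to a small SD. The log2 ratio of Mir7-1 over Mir7-2 was 0.29 per 100 nt of precursor, since Mir7-2 is the shorter precursor. Each pup alone gave 338 to 356 CPM for Mir7-1, 250.4 to 259 CPM for Mir7-2, 1693 to 2185 CPM for Mir7b and 2309 to 2773 CPM for the family. The share of Mir7-1 ranged from 12.2% to 15.4% in this way, its log2 ratio over Mir7-2 from 0.43 to 0.46 and that over Mir7b from -2.69 to -2.25. No paired analysis was possible because there is 1 group of 2 libraries.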
